A study of Mus musculus with 24 samples.

Results

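Ear skin of K14E7 mice, taken 14 days after it was grafted onto C57BL/6 recipients, was compared with ungrafted whole ear skin of K14E7 mice aged 8 weeks. The comparison took 6 of the 24 RNA-seq libraries of the series, taken by their labels: 3 E7 ears, titled E7_8wks_288, E7_8wks_289 and E7_8wks_290 and here called A, B and C, and 3 E7 grafts of day 14, numbered 1, 2 and 3. K14E7 mice are C57BL/6 animals whose basal keratinocytes make the E7 oncoprotein of human papillomavirus 16 from a keratin 14 promoter. The transgene was carried by all 6 libraries compared, and the recipients lacked it, so a graft can hold host cells that never made E7. The same contrast in skin without the transgene served as a parallel: 3 C57BL/6 ears of 8 weeks against 3 C57BL/6 ear grafts on C57BL/6 recipients at day 14. Values of 3 E7 grafts of day 28 are given where they bear on a result. Grafts of CD1d-/-xK14E7 donors and C57BL/6 grafts of day 28 entered only the shared estimate of spread.

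The labels place ear libraries and graft libraries on different flow cells, so that grafting and flow cell cannot be told apart in either contrast. The age of the donors at grafting and the body site of the graft bed are not stated. Nothing states that the replicates came from separate mice, and the p-values measure only the spread between these samples. Levels are CPM, read counts divided by library sizes that TMM scaled, always in the order ears A, B and C and then grafts 1, 2 and 3. Changes are log2 fold changes of graft over ear ± standard error (SE), with n = 3 against 3, and adjusted p-values are those of edgeR's quasi-likelihood test after Benjamini-Hochberg adjustment over all genes. A gene "rose" or "fell" if its adjusted p was under 0.05. In bulk tissue fewer cells of a type and less RNA per cell cannot be told apart.

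Library totals ran from 10540081 to 11054422 counts in the E7 ears and from 6726995 to 9937396 in the E7 grafts. Mitochondrial transcripts held 2.01 to 2.15% of the counts in the ears and 1.58 to 1.69% in the grafts. The correlation of log2 CPM was 0.990 to 0.991 between ears, 0.976 to 0.982 between grafts, and 0.905 to 0.929 between an ear and a graft. Keratins of the interfollicular epidermis (Krt5, Krt14, Krt1 and Krt10) summed to 41715 to 47822 CPM in the ears and to 50892 to 91315 CPM in the grafts, so both sides held epidermis. Of 16612 genes tested, 7180 changed (43.2%), 3634 rising (21.9%) and 3546 falling (21.3%), and for 54.8% of the genes tested no ear library overlapped the graft libraries. With so many genes past the threshold, the count of any gene list is read against these shares. At a change of at least 3 on the log2 scale, 270 genes had risen and 66 had fallen. Of those 270, 53 were keratin-associated protein genes (Krtap), 23 were keratins and 11 were Hox genes.

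The transgene itself was read at 57.2, 54.6 and 42.1 CPM in the ears and at 33.8, 40.6 and 38.6 CPM in the grafts. The ranges did not overlap, and the change did not pass the test (-0.44 ± 0.24, adjusted p = 0.157). With only the compared groups in the fit its adjusted p was 0.0299. The 3 C57BL/6 ears held 3 E7 counts together and the C57BL/6 grafts held 0. Krt14, whose promoter drives the transgene, stood at 6689, 5090 and 6349 CPM in the ears and at 8691, 8256 and 6803 CPM in the grafts (0.39 ± 0.18, adjusted p = 0.082).

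Skin that is cut out, moved and healed in place goes through a sequence that is well known. Keratinocytes switch to wound keratins, fibroblasts lay down collagen, vessels regrow, and hair follicles may enter growth (anagen), the phase in which matrix cells fill with hair keratins and pigment cells of the bulb are active. E7 binds the retinoblastoma protein, which frees E2F factors to drive genes of DNA replication and the p16 gene Cdkn2a. Fibroblasts of adult skin keep a Hox code of the body region they came from, in which genes of high paralog number mark the trunk and the hind parts.

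Genes of the growing hair shaft rose in every graft, and the 10 largest rises that met the rule for named genes were all Krtap genes and the hair keratin Krt39. Of 30 hair keratin and shaft genes tested, 29 rose and 0 fell, with a median change of 7.19, against a median of 0.003 over all genes. Krt27, a keratin of the inner root sheath (Entrez 16675, GRCm38 chromosome 11), stood at 1.92, 3.02 and 3.88 CPM in the ears and at 924, 254 and 704 CPM in the grafts (7.73 ± 0.74, adjusted p = 5.8e-07). Every graft was far above every ear, and graft 2 was the lowest of the grafts. Krt81, a keratin of the hair cortex (Entrez 64818, chromosome 15), went from 0.385, 0.488 and 1.33 CPM to 460, 111 and 454 CPM (8.83 ± 0.82, adjusted p = 4.5e-07). Padi3, the deiminase that modifies trichohyalin, went from 0.481, 0.878 and 0.852 CPM to 159, 50.2 and 132 CPM (7.24 ± 0.70). Trichohyalin itself (Tchh, chosen after its values were seen) went from 23.9, 29.6 and 35.0 CPM to 4208, 1171 and 3385 CPM (6.63 ± 0.67). In all 4 genes the same graft, number 2, held the lowest level.

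All 53 keratin-associated protein genes tested rose (median 7.63, or 7.36 with genes absent from a group set at the bound that 3 counts give). They encode the matrix that cross-links hair keratins. Krtap genes near 0 in the ears could pass the filter for low counts only through graft libraries, and such genes could hardly fall. Their count of rises is therefore a description, as it is for hair genes such as Krt81. Krt39, a hair keratin, had 0 counts in the E7 ears and stood at 16.7, 4.06 and 17.8 CPM in the grafts, at least 134-fold higher. Krtap9-5 was at least 108-fold and Krtap31-2 at least 104-fold higher, again against 0 counts. Krtap1-5 stood at 0, 0.195 and 0.0947 CPM in the ears and at 252, 71.7 and 240 CPM in the grafts, too few ear counts for a fold. Counts of Krtap genes are uncertain one by one, because near-identical copies share reads, so the family was also summed. The Krtap sum was 6.93, 17.0 and 26.5 CPM in the ears and 5012, 1259 and 4927 CPM in the grafts. The lowest graft was far above the highest ear.

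Single regulators of follicle growth were looked at too. Shh, the signal of the growing follicle, stood at 0.192, 0.195 and 0.189 CPM in the ears and at 3.97, 1.97 and 3.22 CPM in the grafts (3.87 ± 0.92, adjusted p = 0.0022). Its target Gli1 rose by 1.51 ± 0.33 and its receptor Ptch1 by 0.55 ± 0.19. Hoxc13, a factor that activates hair keratin genes, rose by 2.61 ± 0.37, and Lef1, the partner of beta-catenin, by 2.74 ± 0.49. Foxn1, whose loss makes mice nude, did not pass (34.3, 31.5 and 27.4 CPM against 44.3, 28.1 and 47.5 CPM, adjusted p = 0.16). These 6 genes were chosen after their values were seen. Of 15 genes of follicle stem cells and their niche, 10 rose and 3 fell (median 0.76). Leaving out graft 1 made that 7 and 1.

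Lgr5, a marker of cycling follicle stem cells, stood at 7.5, 8.19 and 9.09 CPM in the ears and at 45.7, 18.9 and 43.9 CPM in the grafts (2.12 ± 0.33, adjusted p = 5.3e-05). Sox9, which keeps follicle stem cells in place, rose from 32.5, 31.0 and 32.6 CPM to 73.0, 45.5 and 72.3 CPM (0.98 ± 0.17). Nfatc1, a factor of resting bulge cells, fell from 75.0, 69.8 and 75.2 CPM to 53.6, 44.4 and 57.9 CPM (-0.50 ± 0.10). The 2 stem cell markers that rose were lowest in graft 2, and so was Nfatc1. Dsg4, the desmoglein of the hair shaft, rose from 0.192, 0.195 and 0.379 CPM to 46.7, 11.8 and 44.7 CPM (6.98 ± 0.75), and it was the largest change among 18 cell junction genes.

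**Figure D1:**
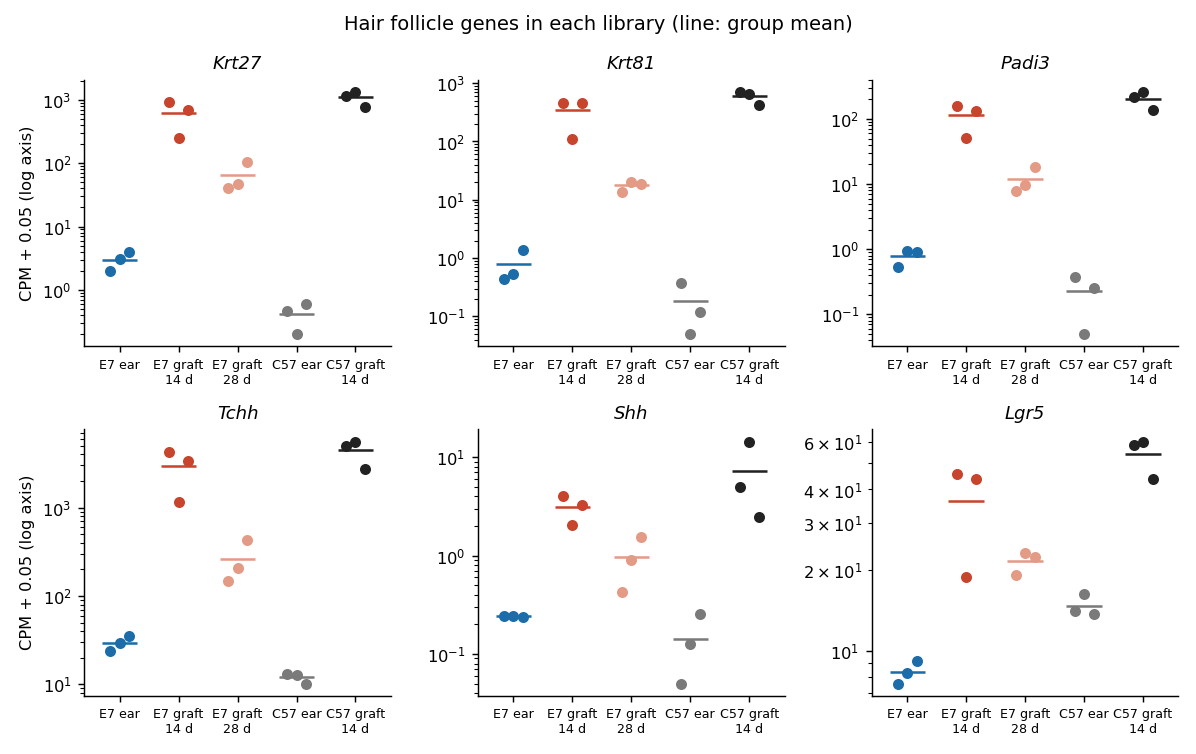
Levels of 6 hair follicle genes in single libraries (points) and group means (lines), as CPM + 0.05 on a log axis, for E7 ear, E7 grafts of day 14 and day 28, C57BL/6 ear and C57BL/6 grafts of day 14. In the panels of Krt27, Krt81, Padi3 and Tchh the day 14 grafts of both donors stand far above the ears, graft 2 is the lowest E7 graft of that day, and the day 28 grafts lie between.

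Hair genes were high in the day 14 grafts of both donors and lower at day 28. Krt27 averaged 64.2 CPM and Krt81 17.6 CPM in the E7 grafts of day 28, which were sequenced on the graft flow cell too. The summed hair list was 184, 200 and 222 CPM in the E7 ears, 14743, 3930 and 12146 CPM in the E7 grafts of day 14, and 666 to 1389 CPM in those of day 28. In C57BL/6 skin the same sum went from 135 to 157 CPM in the ears to 11885 to 20483 CPM in the grafts of day 14, and 30 of 30 genes rose (median 10.17). The change was lower in E7 skin for 4 of the 30 genes by the test of the difference. DESeq2 called 18 of the 30 lower in E7 skin, and the count ran from 1 to 5 when single libraries were left out. The ears differed in level as well: Krt27 averaged 2.94 CPM in E7 ears and 0.367 CPM in C57BL/6 ears.

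Pigment cell genes rose with them. Of 13 melanocyte genes 12 rose and 0 fell (median 1.96), and the list's sum went from 112, 152 and 107 CPM to 411, 220 and 363 CPM, again lowest in graft 2. With single libraries left out 8 to 11 rose, and 10 with only the compared groups in the fit. Slc45a2, a transporter of the melanosome, rose from 0.289, 0.293 and 0.284 CPM to 6.66, 1.65 and 3.79 CPM (3.70 ± 0.71). Mlana, a melanosome protein, rose from 1.44, 1.66 and 1.04 CPM to 8.09, 3.51 and 5.17 CPM (1.98 ± 0.48). Gpnmb, which macrophages also make, rose from 55.2, 74.4 and 42.2 CPM to 173, 93.2 and 220 CPM (1.5 ± 0.33). No graft of these 3 genes overlapped an ear. Of the 13 genes, 9 rose in C57BL/6 skin (median 1.41), and none of the 13 differed between donors by the test of the difference at adjusted p under 0.05.

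Graft 2 was the lowest graft for most genes of several lists at once. It was the lowest graft for 30 of 30 hair genes, with a median of 0.29 times the mean of the other 2 grafts. The same was true of 27 of 27 muscle genes (0.195 times), 15 of 16 fat genes (0.358), 17 of 19 sebaceous genes (0.599), 17 of 26 Hox genes (0.599) and 9 of 13 melanocyte genes (0.614). It was the lowest for 1 of 23 dermal matrix genes (1.39 times), for 2 of 21 cartilage genes (1.36), and for 5660 of all 16612 genes. Without graft 2 all 30 hair genes rose (median 7.54). What set graft 2 apart was not tested.

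Several Hox genes of the trunk had no read in the E7 ears and were read in the grafts. Of 26 Hox genes of paralog groups 2 to 10 tested, 17 rose and 1 fell (median 2.88, or 2.67 with absent genes at their bounds). With only the compared groups in the fit 12 rose (median 1.68), and without graft 2, the lowest graft for 17 of the 26, 18 rose (median 3.14). The split lay mostly along the paralog groups, less so in the D cluster. Among the 9 genes of groups 2 to 4 there were 3 that rose and 1 that fell (median 0.38), whereas 14 of the 17 genes of groups 5 to 10 rose and 0 fell (median 5.13, or 3.42 at the bounds). There were 8 genes that had 0 counts in all 3 E7 ears together: Hoxa9, Hoxa10, Hoxb6, Hoxb7, Hoxb8, Hoxc8, Hoxc9 and Hoxc10. These 8 could pass the filter for low counts only through graft libraries, and they could not fall. The counts for groups 5 to 10 are therefore a description. Hoxc8 (Entrez 15426, chromosome 15), a gene of the thoracic region, then stood at 8.25, 2.41 and 3.56 CPM in the grafts. Hoxb7 stood at 4.44, 2.08 and 2.53 CPM and Hoxc9 at 1.27, 0.658 and 1.15 CPM. Hoxc10 was read in each graft (1.43, 0.329 and 0.460 CPM) and did not pass (adjusted p = 0.057). Graft 1 was the highest graft for Hoxc8, Hoxb7, Hoxc9 and Hoxc10, and all of these levels were low.

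Genes of the D cluster were read in every E7 ear. Hoxd4 rose from 1.54, 2.15 and 2.56 CPM to 10.8, 8.56 and 8.50 CPM (2.14 ± 0.22, adjusted p = 5.9e-07). Hoxd3 rose from 0.674, 0.390 and 0.568 CPM to 2.38, 2.30 and 2.87 CPM (2.19 ± 0.39). Hoxd8, of a higher paralog group, was read in every ear at 3.46, 3.80 and 4.07 CPM and stood at 4.60, 4.28 and 4.25 CPM in the grafts (0.21 ± 0.23, adjusted p = 0.49). The 1 Hox gene that fell was Hoxa4, from 1.35, 2.54 and 1.52 CPM to 0.952, 0.878 and 0.804 CPM (-1.03 ± 0.41, adjusted p = 0.0499). No Hox gene of the list fell under any alternative run but the one without ear A, where 1 fell. Hox genes other than Hoxd3, Hoxd4 and Hoxc9 were described to complete the family.

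**Figure D2:**
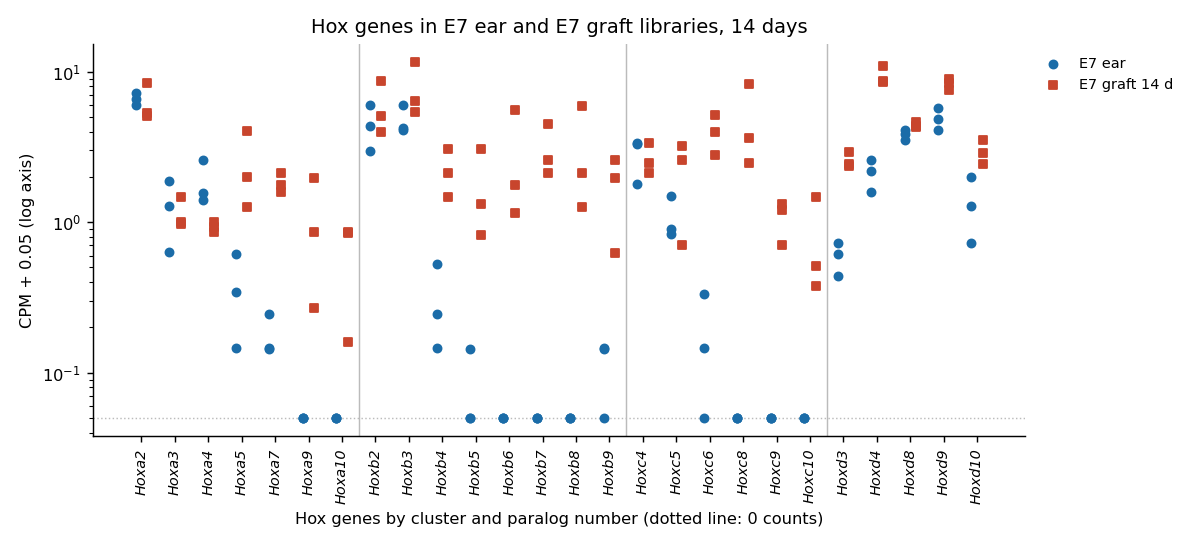
Levels of 26 Hox genes in each E7 ear (circles) and each E7 graft of day 14 (squares), as CPM + 0.05 on a log axis, ordered by cluster and paralog group; the dotted line marks 0 counts. Genes of the A, B and C clusters from group 5 upward sit at or near the dotted line in the ears and above it in the grafts, whereas Hoxd8 to Hoxd10 are read in both.

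Hox genes rose in skin without the transgene as well. Of the 26 genes, 20 rose in C57BL/6 skin and 2 fell (median 3.90). The 8 genes with 0 counts in the E7 ears had 0 counts in the C57BL/6 ears too, and Hoxc8 averaged 11.4 CPM in the C57BL/6 grafts. The test of the difference passed for 3 Hox genes, Hoxd4 (1.02 larger in E7 skin, adjusted p up to 0.0742 with single libraries left out) and Hoxc4 and Hoxc5 (-3.05 each). The Hox sum was 110.9 to 142 CPM in the E7 grafts of day 28, against 110.9, 68 and 74.1 CPM at day 14 and 34.8 to 37.2 CPM in the ears, so unlike the hair genes it was no lower at the later day. Among 20 regulator genes of cranial and ear position 7 rose and 0 fell in E7 skin (median 0.82, or 0.61 at the bounds), against 6 rising and 5 falling in C57BL/6 skin (median -0.04). The C57BL/6 counts are near the shares over all genes, 30.6% rising and 22% falling. The test of the difference passed for 1 of the 20, with a lower change in E7 skin. Tbx18, a T-box factor, rose from 0.866, 1.56 and 0.852 CPM to 7.62, 4.50 and 6.21 CPM (2.45 ± 0.33). En1, an engrailed factor expressed in dermal fibroblasts of the back, stood at 0.0962, 0.0975 and 0 CPM in the ears and at 2.22, 1.43 and 1.95 CPM in the grafts. Prrx1, a factor of mesenchyme, rose from 53.6, 70.1 and 56.6 CPM to 92.8, 114 and 112 CPM (0.82 ± 0.14).

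Collagen and wound fibroblast genes rose throughout. Of 23 dermal matrix genes 21 rose and 0 fell (median 1.99). Col1a1, the main collagen of the dermis (Entrez 12842, chromosome 11), stood at 325, 848 and 518 CPM in the ears and at 5014, 7970 and 6118 CPM in the grafts (3.50 ± 0.32, adjusted p = 2.1e-07). Col3a1, the collagen of young scar, rose from 769, 1442 and 1048 CPM to 6801, 10693 and 8500 CPM (3.00 ± 0.32), and Col6a3, a collagen of the pericellular matrix, rose by 2.21 ± 0.25. Ears and grafts were far apart for all 3 collagens, and graft 2 was the highest. The 2 genes of the list that did not pass were decorin (Dcn, 0.14, adjusted p = 0.70) and tenascin X (Tnxb, 0.32, adjusted p = 0.47).

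Of 21 wound fibroblast genes 17 rose and 1 fell (median 1.79). Lrrc15, a surface protein of activated fibroblasts (Entrez 74488, chromosome 16), went from 3.18, 6.63 and 9.38 CPM to 286.6, 203 and 236 CPM (5.23 ± 0.49, adjusted p = 4.7e-07). Cthrc1, a secreted protein of repair tissue, rose from 2.21, 4.88 and 3.13 CPM to 35.7, 68.6 and 49.6 CPM (3.92 ± 0.35), and the metalloprotease gene Adam12 rose by 3.77 ± 0.39. The gene that fell was thrombospondin 1 (Thbs1, -0.67). Among 15 matrix proteases and their inhibitors 5 rose and 1 fell (median 0.77). Mmp14, the membrane collagenase, rose from 95.8, 106 and 93.6 CPM to 206, 311 and 259 CPM (1.39 ± 0.14), and Mmp19 rose by 1.63 ± 0.29. Timp4, an inhibitor of metalloproteases that fat tissue makes, was the gene that fell, from 3.56, 5.95 and 4.26 CPM to 0.317, 0.110 and 0.575 CPM (-3.73 ± 0.52).

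These dermal changes were shared with C57BL/6 skin: 20 dermal matrix genes rose and 1 fell there (median 1.58), and 17 wound fibroblast genes rose and 2 fell (median 1.77). None of the 23 dermal matrix genes differed between donors by the test of the difference at adjusted p under 0.05. In the wound fibroblast list the matrix glycoprotein genes Tnc (-1.77) and Spp1 (-2.60) rose less in E7 skin, both chosen after their values were seen. The dermal sum was 3675, 6600 and 4674 CPM in E7 ears against 12571 to 13842 CPM in C57BL/6 ears.

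Blood vessel genes rose, with 20 of 22 endothelial genes up and 0 down (median 1.36). Their sum went from 271, 313 and 305 CPM to 665, 721 and 704 CPM, without overlap. Aplnr, the apelin receptor of sprouting vessels, rose from 2.98, 2.73 and 2.56 CPM to 34.4, 37.2 and 29.2 CPM (3.60 ± 0.38, adjusted p = 1.2e-06). Cdh5, the cadherin that seals endothelium, rose from 10.2, 13.1 and 10.0 CPM to 54.1, 52.1 and 51.7 CPM (2.24 ± 0.24). Esam, an adhesion molecule of endothelial junctions, rose from 8.27, 7.32 and 8.52 CPM to 31.6, 34.4 and 32.3 CPM (2.03 ± 0.19). The 3 grafts were close to each other for each of these genes. The leukocyte adhesion genes Sele (adjusted p = 0.099) and Icam1 (-0.16, adjusted p = 0.5) were the list members that did not pass. Of the 22, 18 rose in C57BL/6 skin (median 0.83). By the test of the difference the change was higher in E7 skin for 5 genes and lower for 1, Icam1. Esam was among the 5 (0.84), with an adjusted p of up to 0.0859 when single libraries were left out.

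Lymphatic genes did not follow. Of 7 tested, Pdpn, which fibroblasts also make, rose (16.7, 17.5 and 17.2 CPM to 29.4, 28.2 and 38.2 CPM, 0.90 ± 0.19) and Reln fell (-0.71 ± 0.23), a call lost without ear B (adjusted p = 0.0913) or graft 1 (0.0824). Red cell genes were low on both sides. Of 7 erythroid and platelet genes 1 rose and 4 fell (median -1.30), and their sum fell from 69.0 to 94.7 CPM in the ears to 33 to 36.6 CPM in the grafts. Hba-a1, an alpha globin gene whose copies share reads, fell from 23.2, 26.1 and 18.9 CPM to 5.24, 5.70 and 3.68 CPM (-2.22 ± 0.58). The 1 gene that rose was Slc4a1, the anion exchanger of red cells, at 0, 0.0975 and 0.0947 CPM in the ears and 6.82, 1.97 and 5.86 CPM in the grafts.

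All 33 genes of the type I interferon response rose (0 fell), by 0.33 to 2.69 with a median of 1.49. Type I interferon acts through the factor complex ISGF3, which binds a repeat of GAAA, here searched on both strands as GAAA, any 2 bases and GAAA again. The promoters of 4 genes of the family are shown, taken from those that hold a match, to print the letters found. Other genes of the family, such as Ifi44, Ifi35 and Isg20, hold none in the window searched. Each sequence covers the 180 bases before the gene's start in RefSeq's GRCm38.p6 annotation, read 5′ to 3′ in the direction of transcription, with matches in capitals.
Bst2, chr8:71537473-71537652, minus strand: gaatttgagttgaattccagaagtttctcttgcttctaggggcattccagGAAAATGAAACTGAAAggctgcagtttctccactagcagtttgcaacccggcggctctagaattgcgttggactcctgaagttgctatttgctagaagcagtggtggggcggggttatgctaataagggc
Oas1a, chr5:120907526-120907705, minus strand: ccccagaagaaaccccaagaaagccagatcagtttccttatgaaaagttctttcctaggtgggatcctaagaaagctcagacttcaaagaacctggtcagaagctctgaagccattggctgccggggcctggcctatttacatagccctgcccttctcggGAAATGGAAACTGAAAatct
Oas1g, chr5:120887614-120887793, minus strand: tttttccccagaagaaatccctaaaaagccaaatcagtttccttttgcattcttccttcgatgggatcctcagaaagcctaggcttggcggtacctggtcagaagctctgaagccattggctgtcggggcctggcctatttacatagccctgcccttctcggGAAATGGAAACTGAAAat
Trim30a, chr7:104465194-104465373, minus strand: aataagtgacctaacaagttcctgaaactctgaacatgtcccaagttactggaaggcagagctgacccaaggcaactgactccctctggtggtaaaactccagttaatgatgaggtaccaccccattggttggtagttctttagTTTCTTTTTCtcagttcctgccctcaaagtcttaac

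In Bst2, Oas1a and Oas1g the capitals hold 2 overlapping matches, and in Trim30a the match is on the opposite strand. Within 250 bases before to 50 bases after the start, 13 of the 23 type I genes with a promoter in the RefSeq table held a match (56.5%). The share was 3.99% of the genes of that table (1079 of 27025) and 3.88% of the tested genes with a promoter (486 of 12516). Of 14 interferon gamma response genes with a promoter 11 held a match (78.6%), and of 15 dermal matrix genes 2 did (13.3%). Of 22 hair genes, 22 muscle genes and 14 Hox genes with a promoter, 0 held one. A match is a description of these letters and not a shown binding site.

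Bst2, tetherin, which holds budding virus on the cell surface (Entrez 69550), rose from 25.2, 25.2 and 27.5 CPM to 93.3, 104 and 156 CPM (2.19 ± 0.20, adjusted p = 2.6e-07). Ifi44, an interferon-induced gene (Entrez 99899, chromosome 3), rose from 8.27, 9.07 and 7.29 CPM to 44.1, 42.5 and 71.7 CPM (2.69 ± 0.27), and Dhx58, which encodes the RNA sensor LGP2, from 16.6, 17.3 and 17.7 CPM to 44.0, 51.5 and 66.0 CPM (1.65 ± 0.18). The ears were within a narrow range for each gene, every graft was above them, and graft 3 was the highest. Oas1a, an RNA-activated synthetase whose copies share reads, rose from 27.5, 28.2 and 30.1 CPM to 78.2, 70.8 and 102 CPM (1.55 ± 0.18). Trim30a, a regulator of innate signalling, rose from 16.1, 17.4 and 16.6 CPM to 39.2, 41.9 and 66.2 CPM (1.56 ± 0.19). The smallest rise was that of Ifi27 (0.33). The last 3 genes were chosen after their values were seen.

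**Figure D3:**
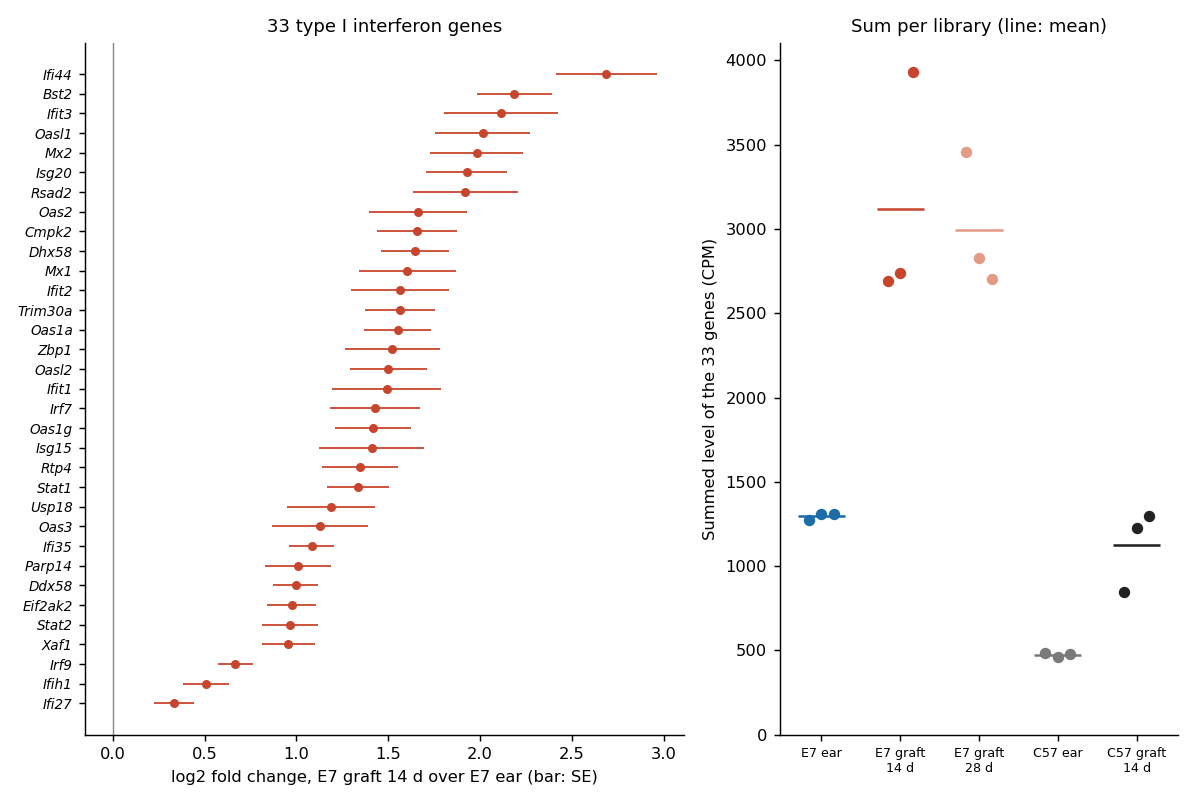
Left, log2 fold change of E7 grafts of day 14 over E7 ear for the 33 type I interferon genes, with SE bars. Right, their summed CPM in each library (points) with group means (lines), on a linear axis from 0, for E7 ear, E7 grafts of day 14 and day 28, C57BL/6 ear and C57BL/6 grafts of day 14: all 33 changes are above 0, and graft 3 is the highest E7 graft of day 14.

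The sum of the 33 genes was 1274, 1312 and 1311 CPM in the E7 ears, 2690, 2740 and 3931 CPM in the grafts of day 14 and 2704 to 3454 CPM in those of day 28. In C57BL/6 skin it went from 461 to 482 CPM in the ears to 845, 1228 and 1295 CPM in the grafts, and 32 of 33 genes rose (median 1.99). By the test of the difference the rise was smaller in E7 skin for 6 genes (Oas1a, Oas1g, Oas3, Oasl2, Irf7 and Zbp1, from -1.15 to -2.07) and larger for 1 (Ifi35, 0.59). Oas1a averaged 1.58 CPM in C57BL/6 ears and 17.6 CPM in C57BL/6 grafts. Of 26 interferon gamma response genes 20 rose and 1 fell (median 1.29), against 13 of 26 rising in C57BL/6 skin (median 0.86), and none of the 26 passed the test of the difference. Gbp3, a guanylate-binding protein of a family with similar copies, rose from 18.1, 22.9 and 25.7 CPM to 57.3, 56.1 and 91.5 CPM (1.62 ± 0.24). Irgm2 and Irgm1, GTPases of defence against microbes inside cells, rose by 1.48 ± 0.25 and 1.20 ± 0.21. Ifng itself stood at 0.0962, 0.195 and 0.568 CPM in the ears and at 0.793, 0.329 and 1.26 CPM in the grafts, and did not pass (adjusted p = 0.16). The gene that fell was Ciita (-0.59), the switch of class II antigen presentation.

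Class II antigen presentation genes fell in part, and 1 class I gene rose. Of 11 class II genes 6 fell and 0 rose (median -0.51). Cd74, the invariant chain, stood at 860, 885 and 1043 CPM in the ears and at 393, 592 and 739 CPM in the grafts (-0.69 ± 0.20, adjusted p = 0.0098). H2-Aa, a class II chain, fell by 0.62 ± 0.19 on the log2 scale, and H2-DMa, which loads class II with peptide, by 0.66 ± 0.21. These calls rest on graft 1, the lowest graft for each: without it 0 of the 11 genes fell, without ear C there was 1, and with only the compared groups in the fit there were 3, Cd74 not among them (adjusted p = 0.0576). Of 17 class I and antigen processing genes 1 rose (1 to 3 with single libraries left out, and 2 fell without graft 3), H2-T23, a class Ib molecule (137, 122 and 140 CPM to 182, 173 and 257 CPM, 0.62 ± 0.14). Of the 17 genes, 9 rose in C57BL/6 skin (median 0.50). The test of the difference passed for 1 of the 17.

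The proliferation genes of E7 skin stayed high in the grafts and none of them rose, unlike those of C57BL/6 skin. Of 46 DNA replication genes 0 rose and 22 fell (median -0.30), and of 32 mitosis genes 0 rose and 10 fell (median -0.30). Over all genes tested 21.3% fell. Mki67, a marker of dividing cells (Entrez 17345, chromosome 7), stood at 770, 859 and 849 CPM in the ears and at 643, 657 and 589 CPM in the grafts. The groups did not overlap, yet the change did not pass (-0.39 ± 0.16, adjusted p = 0.057). With only the compared groups in the fit it did (adjusted p = 0.00697), and 20 mitosis genes fell. Kif23, a kinesin of cell division, fell from 67.4, 70.2 and 65.5 CPM to 50.6, 48.1 and 45.4 CPM (-0.50 ± 0.13). Cdc25c, the phosphatase that starts mitosis, fell by 0.62 ± 0.17 and Kif20a by 0.51 ± 0.14 on the log2 scale. Rfc3, a subunit of the clamp loader, fell from 44.5, 46.2 and 43.0 CPM to 28.2, 30.8 and 26.1 CPM (-0.65 ± 0.11), Orc6 by 0.54 ± 0.12 and the polymerase subunit gene Pola2 by 0.52 ± 0.10. Counts depended on single libraries. Without ear B, ear C, graft 1 or graft 3, 4 to 6 mitosis genes fell, near or below the share over all genes. Without ear B, graft 1 or graft 3, 12 to 14 replication genes fell.

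In C57BL/6 skin the same genes moved the other way, from a lower level. There 31 of 32 mitosis genes rose and 0 fell (median 1.41), and 29 of 46 replication genes rose and 2 fell (median 0.43). Mki67 rose from 99.7 to 279 CPM on average in C57BL/6 skin. Over all genes the test of the difference between the 2 donors' changes called 2098 of 16612 (12.6%), 1430 with a lower change in E7 skin (8.61%) and 668 with a higher one (4.02%). Of those calls 31.8% were higher in E7 skin, 55.2% under upper quartile normalization and 51.9% with only the compared groups in the fit, so the balance of directions was not fixed by these data. In the mitosis list 31 of 32 genes had a lower change in E7 skin, also when any single library was left out, and in the replication list 29 of 46 (20 to 28 with single libraries left out). In both lists 0 genes had a higher one. Mki67 differed by -1.87. The summed mitosis list was 3132, 3366 and 3369 CPM in E7 ears and 2694, 2808 and 2523 CPM in E7 grafts, and 488 to 692 CPM and 1264 to 1450 CPM in C57BL/6 ears and grafts. It was 1803 to 2076 CPM in E7 grafts of day 28.

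Cdkn2a, which encodes p16 and ARF, fell from 8.18, 8.78 and 6.44 CPM to 4.13, 3.18 and 3.91 CPM in E7 skin (-1.07 ± 0.33, adjusted p = 0.013). In C57BL/6 skin it rose from 0.0996 to 1.5 CPM on average. Of 10 genes of retinoblastoma proteins and cyclin-dependent kinase inhibitors 0 rose and 7 fell (median -0.38). Rb1, the target of E7, fell from 122, 133 and 127 CPM to 99.5, 92.3 and 89.3 CPM (-0.44 ± 0.08), its relative Rbl2 by 0.39 ± 0.08 on the log2 scale, and Cdkn2b, which encodes p15, from 28.6, 27.4 and 28.1 CPM to 15.4, 21.1 and 21.0 CPM (-0.54 ± 0.12). Ears and grafts did not overlap for Cdkn2a, Rb1 or Cdkn2b. Of 18 p53 target genes 2 rose and 3 fell (median -0.08). Phlda3 rose by 0.62 ± 0.09, while the death gene Bbc3 fell by 1.08 ± 0.20 and the junction protein gene Perp by 0.45 ± 0.10 on the log2 scale.

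**Figure D4:**
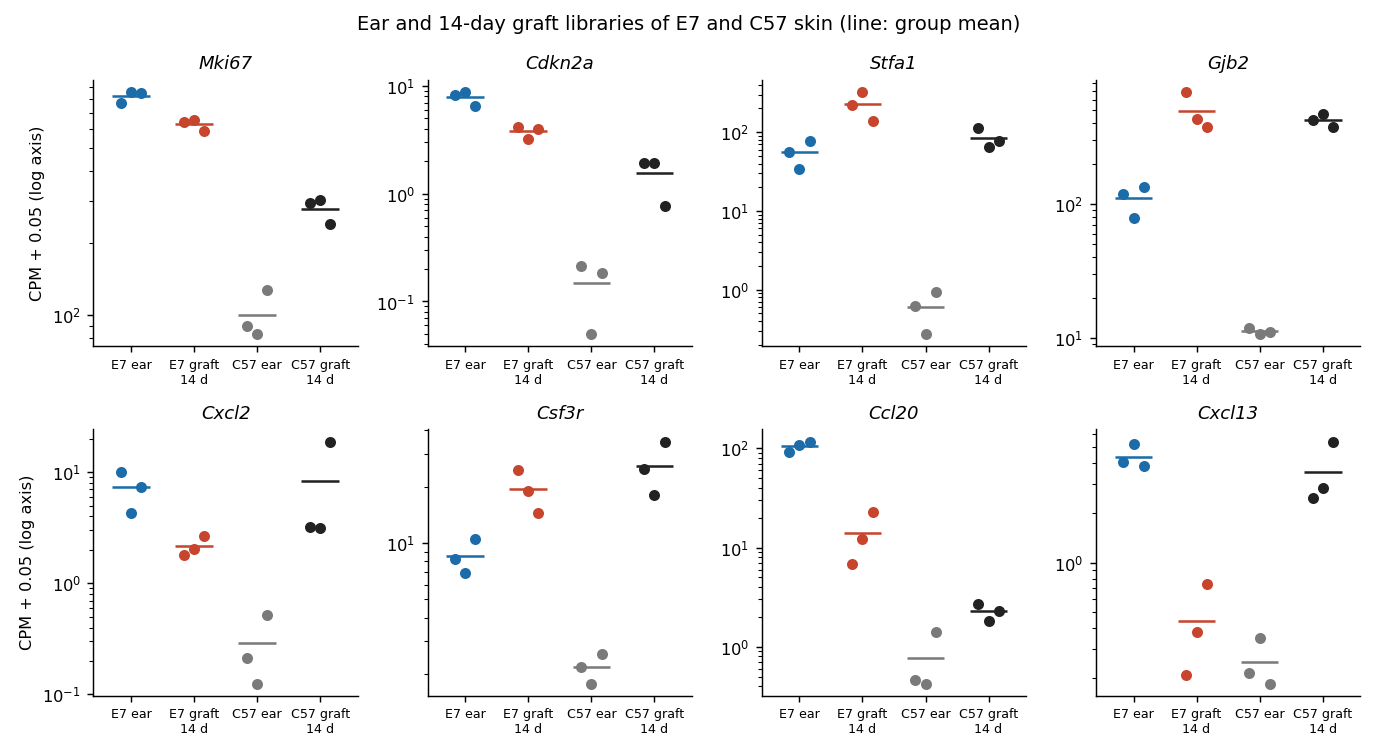
Levels of 8 genes in single libraries (points) and group means (lines), as CPM + 0.05 on a log axis, in E7 ear, E7 grafts of day 14, C57BL/6 ear and C57BL/6 grafts of day 14. For Mki67, Cdkn2a and Cxcl13 the change from ear to graft goes down in E7 skin and up in C57BL/6 skin, whereas Stfa1, Gjb2 and Csf3r rise in both, from a higher level in E7 ear.

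Wound and cornified envelope genes rose in part. Of 25 wound keratinocyte genes 9 rose and 3 fell (median 0.28). Krt6a, the keratin of activated epidermis, stood at 755, 227 and 674 CPM in the ears and at 3969, 1661 and 1869 CPM in the grafts (2.18 ± 0.45, adjusted p = 0.0008). Stfa1, a stefin whose copies share reads, rose from 55.3, 33.6 and 77.3 CPM to 221, 325 and 137 CPM (2.04 ± 0.36). Itga5, the fibronectin receptor chain, rose from 25.8, 30.0 and 32.1 CPM to 57, 65.6 and 64.2 CPM (1.09 ± 0.16). The groups were apart for all 3. The genes that fell encode secreted antimicrobial proteins and inhibitors: Lcn2 (-1.51), Slpi (-1.37) and Defb14 (-1.27). The alarmin S100a8, of keratinocytes and neutrophils, stood at 63.7, 29.6 and 117 CPM in the ears and at 44.9, 117 and 14.4 CPM in the grafts. Its groups overlapped and it did not pass (-0.25, adjusted p = 0.79). Of the 25 genes, 21 rose in C57BL/6 skin and 0 fell (median 3.22). For 15 of the 25 the change was lower in E7 skin by the test of the difference (12 to 17 with single libraries left out). The ears differed in level: the list's sum was 3530 to 7015 CPM in E7 ears and 558 to 691 CPM in C57BL/6 ears. In the grafts it was 11242 to 17310 CPM in E7 skin and 4100 to 6282 CPM in C57BL/6 skin.

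Among the 36 tested genes of the cornified envelope, 13 rose and 7 fell, with a median of 0.13. Rptn, a filaggrin-like protein, rose from 208, 132 and 363 CPM to 3016, 2989 and 969 CPM (3.31 ± 0.50). Casp14, the protease of cornification, rose from 395, 450 and 422 CPM to 1205, 1561 and 650 CPM (1.43 ± 0.22). Flg2 fell from 633, 791 and 533 CPM to 262, 228 and 268 CPM (-1.37 ± 0.19). Keratins of the upper layers were split as well, as seen in 3 genes chosen after their values were known. Krt1 rose from 11138, 8518 and 12256 CPM to 27519, 40464 and 21572 CPM (1.49 ± 0.25), whereas Krt2, a keratin of the ear's upper epidermis, fell from 17187, 16151 and 14874 CPM to 925, 853 and 1642 CPM (-3.82 ± 0.85, adjusted p = 0.0015). Krt10 did not pass (0.22, adjusted p = 0.51). Krt24, a keratin of differentiating layers, fell from 81.0, 98.2 and 50.7 CPM to 0.952, 0.987 and 0.575 CPM (-6.51 ± 0.60, adjusted p = 4.6e-07). C57BL/6 skin had 22 rising and 4 falling genes of the envelope (median 0.72), and for 12 of 36 the change was lower in E7 skin by the test of the difference. The list's sum was 82937 to 87463 CPM in E7 ears and 37048 to 43533 CPM in C57BL/6 ears. In the grafts it was 71523 to 125935 CPM and 51864 to 60903 CPM.

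Most basal and barrier genes did not pass. Of 15 basal keratinocyte genes 2 rose and 4 fell. Col17a1, the hemidesmosome collagen, fell from 1540, 1434 and 1215 CPM to 807, 731 and 703 CPM (-0.90 ± 0.14), and Trp63, the factor of stratified epithelium, from 499, 435 and 524 CPM to 296, 283 and 344 CPM (-0.66 ± 0.12). Col7a1, the collagen of anchoring fibrils, rose from 161, 157 and 133 CPM to 291, 510 and 187 CPM (1.13 ± 0.26), a call lost with only the compared groups in the fit. Of 20 barrier lipid genes 1 rose, the desaturase gene Degs2 (25.5, 27.3 and 31.3 CPM to 61.9, 62.6 and 38.3 CPM, 0.95 ± 0.18), and 6 fell, among them the lipase gene Lipk (-0.85 ± 0.13) and the glucosylceramide synthase gene Ugcg (-0.36 ± 0.07). Among 18 junction genes 5 rose and 5 fell. The connexin genes Gja1 (219, 194 and 208 CPM to 640, 632 and 498 CPM, 1.51 ± 0.14) and Gjb2 (119, 78.3 and 133 CPM to 686, 432 and 373.7 CPM, 2.17 ± 0.29) rose. Both rose further in C57BL/6 skin, with differences of -1.64 and -3.07. Of 12 genes of epidermal growth factors and their receptors 2 rose, Btc (1.11 ± 0.20) and Nrg1 (1.53 ± 0.43), and 2 fell, with Erbb3 one of them (-0.37 ± 0.08). Btc, betacellulin, fell in C57BL/6 skin (-1.34), a difference of 2.45.

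**Figure D5:**
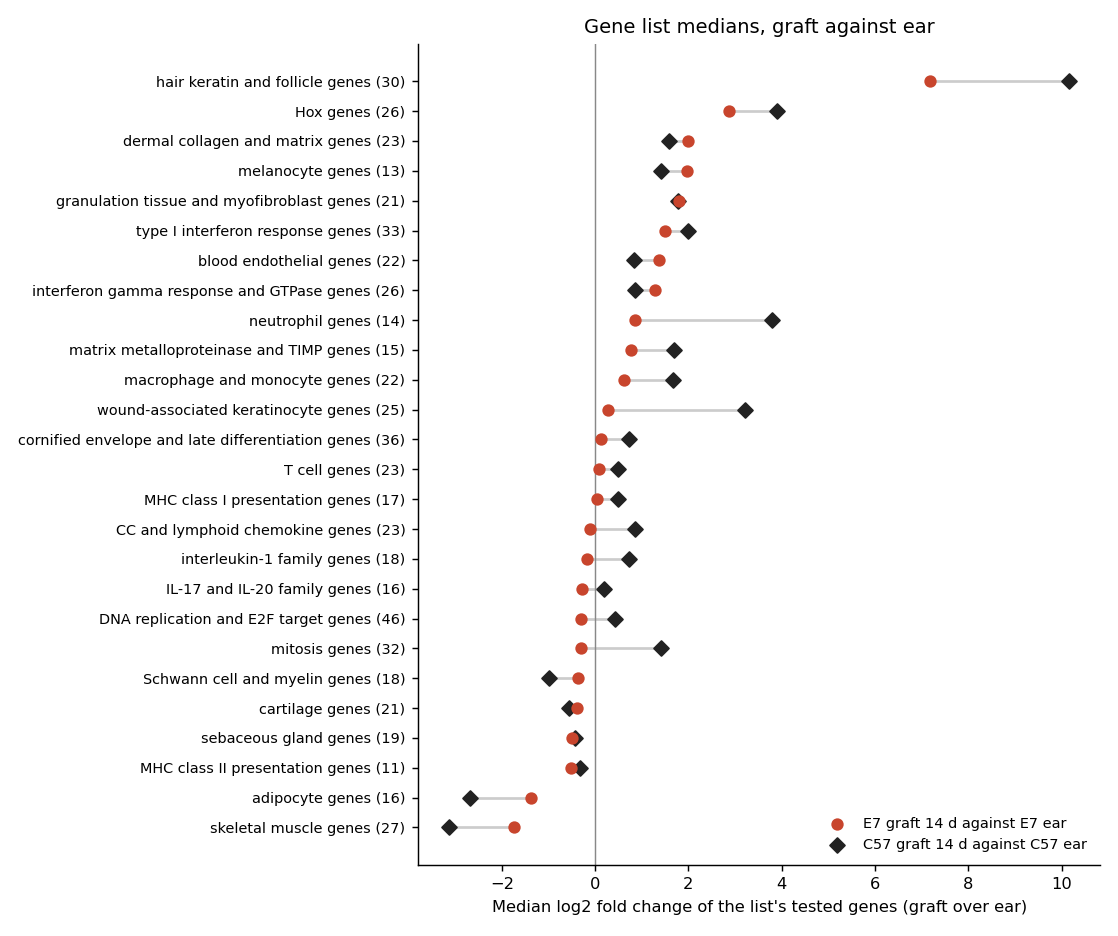
Median log2 fold change of graft over ear for 26 gene lists in E7 skin (circles) and C57BL/6 skin (diamonds), with the number of genes tested in parentheses. Hair, Hox and dermal matrix lists lie to the right for both donors and muscle and fat lists to the left, whereas the mitosis list lies at -0.30 in E7 skin and at 1.41 in C57BL/6 skin.

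Transcripts of muscle, fat and nerve were lower in the grafts. Of 27 skeletal muscle genes 2 rose and 18 fell (median -1.74). With only the compared groups in the fit 7 fell, and without graft 2 there were 11. Ckmt2, the mitochondrial creatine kinase, fell from 40.4, 32.1 and 28.2 CPM to 2.38, 0.439 and 2.30 CPM (-4.35 ± 0.51). Mb, myoglobin, fell from 162, 177 and 116 CPM to 26.3, 8.67 and 41.1 CPM (-2.59 ± 0.51), and Myh2, a myosin of fast fibres, by 2.89 ± 0.58 on the log2 scale. Graft 2 was the lowest for all of these. Myh7, the myosin of slow fibres, stood at 26.8, 22.9 and 21.4 CPM in the ears and at 0.476, 0 and 0 CPM in the grafts. The 2 muscle genes that rose belong to the forming fibre: Myh8, the perinatal myosin (5.10, 2.83 and 5.30 CPM to 43.0, 9.00 and 49.5 CPM, 2.92 ± 0.65), and Myog, the factor of muscle differentiation (1.91 ± 0.69). Only 1 muscle gene rose without ear A, ear B, ear C, graft 1 or graft 3.

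Of 16 fat cell genes 0 rose and 6 fell (median -1.37). Plin4, of the lipid droplet, fell from 78.0, 99.0 and 109 CPM to 29.5, 7.35 and 24.8 CPM (-2.24 ± 0.43), Slc2a4, the insulin-regulated glucose transporter, by 1.77 ± 0.31 and Acsl1 by 0.45 ± 0.09 on the log2 scale. Of 18 Schwann cell genes 2 rose and 6 fell (median -0.36). The fallen ones were of myelin, such as Ncmap (7.79, 6.44 and 6.91 CPM to 0.793, 1.86 and 1.95 CPM, -2.13 ± 0.25), Drp2 (-1.38 ± 0.23) and Mbp (-0.99 ± 0.17), while Gfra3 (1.94), a receptor subunit for artemin, and Sox10 (0.88), a factor of the Schwann cell lineage, rose. Gfra3 and Sox10 were chosen after their values were seen. The 21 cartilage genes were mixed, with Matn4 rising (2.36 ± 0.61), Sox9 rising as above, and Sox6 (-0.61 ± 0.14) among 3 that fell (1 without ear A, ear B, graft 1 or graft 3). Their sum overlapped between groups (633, 691 and 478 CPM against 165, 403 and 483 CPM). Of 19 sebaceous gland genes 1 rose, Fads2 (1.85 ± 0.28), and 5 fell, including Plin5 (-2.40 ± 0.41) and Acsbg1 (-0.64 ± 0.13). In C57BL/6 skin 24 muscle genes, 12 fat genes and 9 Schwann cell genes fell.

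Skint genes fell together. Skint proteins are butyrophilin-like molecules of keratinocytes, and Skint1 selects the dendritic epidermal T cells of mouse skin. Of 11 Skint genes 9 fell and 0 rose (median -1.18), though similar copies share reads. Skint9 (Entrez 329918, chromosome 4) fell from 159, 169 and 152 CPM to 25.4, 33.4 and 29.0 CPM (-2.45 ± 0.13, adjusted p = 3.4e-10). Skint10 fell from 80.1, 80.4 and 85.7 CPM to 15.7, 15.1 and 14.0 CPM (-2.46 ± 0.20), and Skint4 from 41.1, 47.8 and 43.5 CPM to 18.1, 20.1 and 19.3 CPM (-1.20 ± 0.12). In each of them the grafts lay close together below the ears. The other 8 genes of the list, those of the T cells themselves, showed 0 rises and 0 falls. Of the 11 Skint genes, 6 fell in C57BL/6 skin (median -0.57), and for 6 the change was lower in E7 skin by the test of the difference.

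T cell genes showed little that passed. Of 23 T cell genes 1 rose, Ccr7, the homing receptor of naive cells and migrating dendritic cells (5.77, 6.63 and 4.83 CPM to 14.0, 8.12 and 7.58 CPM, 0.76 ± 0.29, adjusted p = 0.041), a call lost without graft 1 (0.46, adjusted p = 0.236), ear A (0.083) or ear C (0.132). Without ear A there were 0 T cell genes that rose and 2 that fell. The T cell sums overlapped (269, 273 and 331 CPM against 303, 315 and 310 CPM). Cd3e stood at 5.00, 4.68 and 6.82 CPM in the ears and at 3.01, 3.29 and 4.14 CPM in the grafts (adjusted p = 0.14). Of 16 cytotoxic genes 5 rose and 0 fell (median 0.25), 1 with only the compared groups in the fit and 3 without ear A or graft 1. Gzma, a granzyme of natural killer and T cells, stood at 0.0962, 0.0975 and 0 CPM in the ears and at 1.75, 2.74 and 3.10 CPM in the grafts. Ncr1, a receptor of natural killer cells, rose from 0, 0.195 and 0.284 CPM to 1.59, 0.768 and 1.61 CPM (2.91 ± 0.69), and Klrb1c, NK1.1, by 1.95 ± 0.57, a call lost without graft 3 (adjusted p = 0.0853). These are low levels, but no graft was below an ear. Of 17 regulatory T cell and checkpoint genes 3 rose and 3 fell. Lgals9 (0.96 ± 0.13), which encodes galectin-9, and Entpd1 (0.86 ± 0.20), which encodes CD39, rose, and Ikzf2 (-0.91 ± 0.13), which encodes Helios, fell. Of 12 B and plasma cell genes Cd22 (0.481, 1.85 and 1.04 CPM to 3.49, 3.95 and 5.06 CPM, 1.89 ± 0.46) and Blk (1.32) rose, and the call of Blk was lost without any 1 of the ears or graft 2 (adjusted p = 0.0543 to 0.16). Ido1 was at 0.289, 0.488 and 0.379 CPM in the ears and 0, 0.219 and 0.345 CPM in the grafts (adjusted p = 0.66), and Cd1d1, which presents lipids to natural killer T cells, did not pass either (12.7, 11.7 and 11.7 CPM against 15.2, 14.3 and 16.8 CPM, adjusted p = 0.34). The Cd1d1 groups did not overlap, and with only the compared groups in the fit it passed (0.37, adjusted p = 0.0325).

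Myeloid genes rose in part. Of 22 macrophage and monocyte genes 9 rose and 2 fell (median 0.61), 6 and 1 without graft 2. Ly6c2, a marker of blood monocytes, rose from 2.79, 3.02 and 4.07 CPM to 11.7, 15.4 and 20.7 CPM (2.28 ± 0.29), and Fcgr1, a high-affinity antibody receptor, from 3.94, 5.17 and 5.59 CPM to 12.7, 17.9 and 23.4 CPM (1.89 ± 0.35). Graft 3 was the highest for Ly6c2 and Fcgr1. Of 14 genes of alternatively activated macrophages 3 rose and 6 fell (median -0.46). Arg1, arginase, stood at 4.33, 4.00 and 11.4 CPM in the ears and at 30.8, 55.7 and 12.9 CPM in the grafts (2.33 ± 0.66, adjusted p = 0.0084), a call lost without graft 2 (adjusted p = 0.0686) and with only the compared groups in the fit (0.0523). Alox15, a lipoxygenase, fell by 3.17 ± 0.58 and the chemokine gene Ccl22 by 0.86 ± 0.19 on the log2 scale. Of 17 dendritic cell genes 7 rose and 4 fell, 3 and 4 without ear A. Fscn1, of mature dendritic cells, rose (34.1, 28.5 and 31.2 CPM to 89.97, 91.1 and 80.2 CPM, 1.48 ± 0.18), and the Langerhans cell lectin gene Cd207 fell (22.8, 18.0 and 20.6 CPM to 5.55, 5.70 and 10.5 CPM, -1.48 ± 0.22), as did the dermal lectin gene Cd209d (-2.18 ± 0.34).

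Neutrophil genes were spread widely between libraries: their sum was 245, 126 and 387 CPM in the ears and 174, 346 and 102 CPM in the grafts. Of 14 tested 4 rose and 0 fell (median 0.86), and 2 rose without ear B, ear C or graft 3. Csf3r, the receptor of granulocyte growth factor, rose from 8.18, 6.83 and 10.4 CPM to 24.4, 18.9 and 14.5 CPM (1.17 ± 0.25), Fpr2, a receptor of chemotactic peptides, by 3.13 ± 0.77 and the lectin gene Clec4d by 1.25 ± 0.43, a call lost without ear B, ear C, graft 1 or graft 3 (adjusted p = 0.0709 to 0.1). Of the 14, 13 rose in C57BL/6 skin (median 3.80), and for 7 of the 14 the change was lower in E7 skin by the test of the difference (4 to 9 with single libraries left out). The ears differed in level here too: in C57BL/6 skin the sum was 27.3 to 36.7 CPM in the ears and 88.1 to 336 CPM in the grafts. Of 16 mast cell genes 2 rose, Mcpt2 (0 counts in the ears, 0.635, 0.878 and 0.804 CPM in the grafts) and Mcpt1 (1.30, adjusted p = 0.0498). Mcpt1 lost its call without ear A, ear C, graft 2 or graft 3 (adjusted p = 0.11 to 0.212). C57BL/6 skin had 10 mast cell genes that fell, and the difference passed for 6 of the 16.

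Several cytokine and chemokine genes fell in the grafts. Of 16 genes of the interleukin 17, 20 and 22 axes 0 rose and 8 fell (median -0.28). Il22ra2, the soluble decoy of interleukin 22 (Entrez 237310, chromosome 10), fell from 26, 37.4 and 17.6 CPM to 2.22, 2.85 and 3.22 CPM (-3.26 ± 0.29, adjusted p = 1.0e-07). Il23a, a subunit of interleukin 23, fell from 11.2, 12.8 and 17.9 CPM to 1.27, 1.86 and 4.48 CPM (-2.42 ± 0.36). No graft reached the lowest ear for either gene. Of 23 chemokine genes 2 rose and 7 fell (median -0.11). Ccl20, the ligand of CCR6 on type 17 and Langerhans lineage cells, fell from 92.7, 108 and 117 CPM to 6.82, 12.2 and 22.9 CPM (-2.90 ± 0.43), and it averaged 0.713 CPM in C57BL/6 ears and 2.23 CPM in C57BL/6 grafts (difference -4.48). Ccl5, the attractant of effector lymphocytes, rose from 1.73, 0.683 and 1.04 CPM to 8.57, 6.80 and 6.67 CPM (2.65 ± 0.50), and Cxcl12, of fibroblasts and vessels, by 1.22 ± 0.25. Cxcl13, the attractant of B cells, fell from 4.04, 5.17 and 3.79 CPM to 0.159, 0.329 and 0.690 CPM (-3.35 ± 0.80) and rose in C57BL/6 skin from 0.200 to 3.52 CPM on average.

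Csf2, the growth factor of granulocytes and macrophages, fell from 15.6, 13.5 and 19.6 CPM to 0.952, 1.86 and 2.64 CPM (-3.10 ± 0.42). The neutrophil attractant gene Cxcl5 rose (1.76, adjusted p = 0.046), a call lost without ear B, ear C, graft 1 or graft 2 (adjusted p = 0.0735 to 0.162). It was also lost under DESeq2 (adjusted p = 0.0761), without the filter for low counts (0.0759) and with a replicate block (0.0569). Cxcl2, another attractant gene, did not pass in the main fit (-1.75) and fell under DESeq2 (-1.77, adjusted p = 0.0442). Of 11 type 2 genes 1 rose and 4 fell. Gata3, a factor of type 2 lymphocytes and of epidermis, fell from 232, 201 and 211 CPM to 136, 101 and 154 CPM (-0.72 ± 0.14), Tslp, the cytokine of stressed keratinocytes, from 10.9, 14.8 and 10.3 CPM to 3.17, 4.72 and 4.02 CPM (-1.58 ± 0.33), and the matrix gene Postn rose (1.12 ± 0.23). Of 18 genes of the interleukin 1 family 2 rose and 3 fell. Il1a fell from 53.9, 53.4 and 74.9 CPM to 35.2, 33.2 and 36.5 CPM (-0.80 ± 0.13) and the decoy receptor gene Il1r2 by 1.25 ± 0.20 on the log2 scale, while Casp1, the protease that matures interleukin 1 beta, rose by 0.83 ± 0.15. There were 10 genes of this family that rose in C57BL/6 skin. Of 19 complement genes 4 rose and 0 fell, led by C1s1 (77.3, 85.5 and 88.7 CPM to 148, 186 and 207 CPM, 1.11 ± 0.20), and with C2 (0.56) and C3ar1 (0.78). Without ear A, 1 complement gene rose, and C2 (adjusted p = 0.0631) and C3ar1 (0.0763) lost their calls, as they did without graft 3 (0.078 and 0.128). C3ar1 lost it without ear C too (0.0704).

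Metabolic and stress genes changed in both directions. Of 22 hypoxia and glycolysis genes 9 rose and 4 fell (median 0.32). Hk2, a hexokinase, rose by 0.82 ± 0.13, whereas Pdk1 (-0.76 ± 0.11) and Bnip3 (-1.20 ± 0.19) fell. Of 24 oxidative phosphorylation genes 0 rose and 9 fell (median -0.07), among them Ndufb8 (-0.51 ± 0.07), Atp5c1 (-0.35) and Ndufs3 (-0.44). Of 12 heat shock genes 6 rose and 2 fell, with the chaperone genes Hsph1 (1.28 ± 0.13), Hspe1 (0.62 ± 0.10) and Bag3 (0.31 ± 0.07) leading. Of 23 immediate early genes, which respond to handling of tissue within minutes, 1 rose and 6 fell (median -0.32), 3 without graft 1. The riser was the phosphatase gene Dusp2 (3.56, 2.54 and 3.60 CPM to 17.9, 7.57 and 19.4 CPM, 2.20 ± 0.35), and the fallen ones included Klf6 (-0.65) and Ier3 (-0.71).

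Some genes were read in the ears and at or near 0 in the grafts. The relaxin receptor gene Rxfp1 went from 1.35, 2.34 and 2.75 CPM to 0 counts in all grafts (at least 17.2-fold lower), Igsf1 was at least 13.9-fold lower, Mrgprg, of a family of sensory neuron receptors, at least 13.4-fold lower and Bhmt at least 10.5-fold lower. Mucl1, a mucin-like gene of glands, fell from 8.18, 9.75 and 9.00 CPM to 0, 0.219 and 0.345 CPM (-5.35 ± 0.56). Chil4, a chitinase-like gene, was uneven in the ears (23.0, 1.27 and 34.5 CPM) and low in each graft (0.317, 0.110 and 0.690 CPM, -5.66 ± 1.45). Myl2 (14.3, 11.6 and 10.3 CPM against 0, 0.219 and 0 CPM) is the light chain of slow muscle fibres.

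Set side by side, most changes of E7 skin had the direction of those in C57BL/6 skin, where 8735 of 16612 genes changed (52.6%), 5077 rising (30.6%) and 3658 falling (22.0%). Upper quartile normalization made 48.8% of these C57BL/6 calls rises in place of 58.1%. Of the 3634 genes that rose in E7 skin, 2693 rose and 44 fell in C57BL/6 skin, and of the 3546 that fell, 2179 fell and 168 rose. Among the 3634 the test of the difference passed for 280 with a higher and 233 with a lower change in E7 skin, and among the 3546 for 477 with a lower and 116 with a higher one. The E7 and C57BL/6 contrasts used no sample in common, but both set 1 graft flow cell against 1 ear flow cell.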

How the data were processed

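Whole ear skin and ear skin grafts were sequenced from total RNA (TruSeq RNA v2, a kit that keeps no strand information), per the labels' protocols. The files deposited by the authors hold whole-number read counts per Entrez gene and library. The submitters' processing notes name mm10 and Trimmomatic for all libraries, with bcl2fastq 1.8.4 for ears and FastQC for grafts. No source used here gives the aligner, the counting program or the annotation release, and counts of overlapping genes and of near-identical copies are uncertain. Of 27180 count rows, 25275 matched RefSeq's GRCm38.p6 gene table, 1904 did not (0.826 to 1.56% of a library's counts, kept), and 1 holds the transgene.

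All 24 libraries were fitted together (8 groups of 3, 16 residual degrees of freedom) in edgeR 4.0.16 (limma 3.58.1, R 4.3.3), after filtering by filterByExpr with a minimum count of 10 and a minimum total of 15, with TMM, robust quasi-likelihood F tests, Benjamini-Hochberg adjustment. The contrasts were E7 graft minus E7 ear, the same in C57BL/6, and the difference of both. The SE is the absolute log2 fold change over the square root of F. A group with 0 counts was set to 3 counts over the group for a bound ("at least"), and with 1 to 3 counts only CPM values are given; such floors cover counting error only. DESeq2 1.42.0, other normalizations and filters, and leaving out single libraries were alternatives. The count test was tested on simulated data. Tables were made in pandas 2.3.3 under Python 3.11.15, and figures in matplotlib 3.10.9.

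Genes were named by rule: a panel of 12, the 10 largest rises and 10 largest falls past the threshold with a mean of at least 1 CPM in the higher group (for E7 graft against ear, there without overlap of the groups, and for the difference; symbols of unnamed models left out), and up to 3 passing members of each of 50 lists by smallest adjusted p. Some genes that the rule names are not reported here. Other genes were chosen after their values were seen. The comparison and the lists were chosen with earlier results of these data known. Promoter sequences are RefSeq's (GRCm38.p6). The same-numbered grafts of the 2 donors are not paired by the labels, and the E7 ears carry other numbers.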

Additional observations from a re-analysis of the deposited data

Results flagged for a closer look

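For 62 of the genes named by rule and reported here, the change from ear to graft differed between E7 and C57BL/6 skin by edgeR's quasi-likelihood test of the difference itself (adjusted p under 0.05, 12.6% of all genes tested, 8.61% lower and 4.02% higher in E7 skin). The change was lower in E7 skin for 41 and higher for 21. Values are E7 change minus C57BL/6 change on the log2 scale. Part of the naming rule took the largest differences, so the sizes of those are a description. Another part took list members by smallest adjusted p of the E7 change, which enters the difference. The directions of those genes and the counts of 41 and 21 are therefore a description too. The causes were not tested.

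The cell cycle genes among them all had the lower change in E7 skin: Mki67 -1.87, Cdc25c -1.95, Kif20a -1.30, Kif23 -1.20, the polymerase gene Pola2 -0.53, Cdkn2a -4.79, Cdkn2b -0.97 and Rb1 -0.39. All but the panel genes Mki67 and Cdkn2a were named for a fall in E7 skin, in lists where 0 genes rose, so the rule favoured this direction. Over the whole lists the change was lower in E7 skin for 31 of 32 mitosis genes, 29 of 46 replication genes and 4 of 10 kinase inhibitor and retinoblastoma genes. Pola2 and Rb1 were lost under upper quartile normalization (adjusted p = 0.0824 and 0.103). Rb1 was also lost without most single libraries, and Pola2 without several.

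Neutrophil genes and attractants did so too: S100a8 -3.63, Csf3r -2.43, Clec4d -2.58, Cxcl2 -6.78, Cxcl5 -4.09 and the acute phase gene Saa3 -6.53. S100a8 and Cxcl5 were lost without most single libraries (adjusted p up to 0.132 and 0.122), Saa3 without E7 ear C (0.0771) and Clec4d without E7 ear A (0.0598). Other cytokine and chemokine genes with a lower change in E7 skin were Cxcl13 -7.42, Ccl20 -4.48, Ccl22 -1.36, the homing receptor gene Ccr7 -2.01, Tslp -2.0 and Il1a -0.84.

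In 7 genes a group held 3 counts or fewer, so that the fitted value depends on the prior count and is no bound: Reg3g -8.18, Acod1 -6.72, Ccl1 -6.15, Il17c -6.06, Ifi213 -5.64, Acsm1 -5.07 and Lypd2 3.91. Acod1 and Il17c were lost without several single libraries. In the C57BL/6 ears together Cdkn2a and Saa3 held 4 counts and Cstdc6 held 5, so the sizes of their differences are uncertain too.

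Epidermal genes with a lower change in E7 skin were Crnn -5.81, Cstdc6 -5.68, Stfa1 -5.14, Rptn -2.83, Casp14 -1.79, the lipid genes Degs2 -2.24 and Ugcg -0.81, the connexin genes Gjb2 -3.07 and Gja1 -1.64, Erbb3 -0.48, and the Skint genes Skint9 -1.48, Skint10 -1.02 and Skint4 -0.57. All of these but Skint4 had a higher mean in E7 ears than in C57BL/6 ears. Stfa1 averaged 55.4 and 0.559 CPM in the E7 and C57BL/6 ears, and 227.5 and 84.5 CPM in the grafts. Skint4 was lost under upper quartile normalization (adjusted p = 0.0616) and without several single libraries. Skint10 was lost without C57BL/6 graft 1 (0.0979) and 2 other single libraries, and Erbb3 without C57BL/6 graft 1 (0.0636). Rptn was lost with only the compared groups in the fit (0.0642). The anchoring genes Col7a1 1.36 and Col17a1 0.69 and the growth factor gene Btc 2.45 had a higher change. Without E7 ear C, Col7a1 (adjusted p = 0.0566) and Col17a1 (0.0789) were lost.

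Among stress genes, Dusp2 -1.69 and Ier3 -0.68 were lower, and Hk2 0.84, Phlda3 0.55 and Bag3 0.48 higher. Dusp2 was lost under upper quartile normalization (adjusted p = 0.0521) and without several single libraries. Single genes of vessels, nerve and mesenchyme had a higher change in E7 skin: Esam 0.84, Drp2 1.06, Mbp 0.98, Sox6 0.81 and Hoxd4 1.02. Esam, Drp2 and Hoxd4 were lost without several single libraries. The changes of Drp2 (-1.38 against -2.44 in C57BL/6 skin), Mbp (-0.99 against -1.97) and Sox6 (-0.61 against -1.43) were below 0 in both donors. Over whole lists the change was higher in E7 skin for 4 of 18 Schwann cell and 1 of 21 cartilage genes, and lower for 0. It was higher for 5 and lower for 1 of 22 endothelial genes, and higher for 1 and lower for 2 of 26 Hox genes.

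Other genes with a higher change in E7 skin were Lhfpl3 3.57, Fbp2 3.47, Trhde 3.41, Atcay 3.07, Rab3b 2.94, Slc47a1 2.92, Slc9a3 2.81, Ccdc27 2.75 and Grm4 2.70. All were low, and each had its highest mean in the C57BL/6 ears, from 1.75 CPM (Lhfpl3) to 4.97 CPM (Atcay). Each was lower in C57BL/6 grafts than in C57BL/6 ears. In E7 skin Atcay (-0.90), Slc47a1 (-0.24) and Slc9a3 (0.28) did not rise, and the ear and graft libraries overlapped for Lhfpl3 (0.89) and Trhde (1.09). Lhfpl3 held 6 counts in the E7 ears together. Lhfpl3 was lost without several single libraries, Rab3b without E7 ear A (adjusted p = 0.0577), E7 ear C (0.0747) or E7 graft 1 (0.0548), and Atcay without C57BL/6 graft 1 (0.0506).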

How the results depend on the processing

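The 7180 genes called between E7 grafts and E7 ear became 7000 to 7214 under other normalizations, filters and DESeq2, 6542 with only the compared groups in the fit, and 6140 to 6357 with single libraries left out. Requiring an absolute log2 fold change of at least 1 left 2393 genes, 827 for the difference between donors and 3130 in C57BL/6 skin, fewer by construction. The 2098 genes called for the difference became 1394 to 1882 with single libraries left out, fewest without C57BL/6 graft 1, and the cause was not tested. S100a8 in E7 skin ran from -1.30 to 0.34 with single libraries left out (0.34 without ear C, 0.22 without graft 3). Acod1 ran from -0.15 (without ear B) to 0.81, with -0.05 without graft 3, and neither passed in any of these. The 36 cornified envelope genes gave 16 to 21 calls, and without graft 2 there were 20 with a median of -0.02. For E7 grafts against ear, 2389 values of single genes under an alternative kept direction and side of the threshold, 52 lost the threshold, 8 gained it and 4 changed sign. For the difference 1077 did so and 119 lost the threshold. A replicate block gave 7299 calls for E7 grafts against ear and 2329 for the difference. Equal numbers did not pair the grafts of the 2 donors: the correlations of their deviations were 0.071, -0.328 and 0.0329. A count of 0 over a group allowed up to 0.0961 CPM in the E7 ears and 0.124 CPM in the E7 grafts, by counting error only.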

Other observations

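Imprinted genes of the Dlk1-Dio3 locus on chromosome 12, a domain of the maternally expressed non-coding RNAs Meg3, Rian and Mirg and the paternally expressed genes Dlk1, Rtl1 and Dio3, rose in the E7 grafts. They were chosen after their values were seen, and all 6 passed (median 3.28), against 21.9% of all genes rising. Meg3 stood at 36.8, 42.1 and 38.6 CPM in the ears and at 269, 410 and 386 CPM in the grafts (3.18 ± 0.27, adjusted p = 1.3e-07 by edgeR). Rian rose from 4.71, 5.75 and 7.86 CPM to 70.8, 117 and 109 CPM (4.02 ± 0.35). Dlk1, a gene of early fat and muscle precursors, was uneven: 4.71, 5.46 and 3.41 CPM in the ears and 2.70, 48.7 and 20.9 CPM in the grafts (2.44 ± 0.64), with graft 1 below the ears. Dio3, which inactivates thyroid hormone, stood at 4.76, 0.549 and 4.14 CPM in the grafts and averaged 0.854 CPM at day 28, when Meg3 averaged 307 CPM. H19, an imprinted RNA of another chromosome, rose from 39.7, 24.5 and 28.6 CPM to 138, 297 and 229 CPM (2.84 ± 0.39). In C57BL/6 skin 5 of the 6 genes of the locus rose, and the test of the difference passed for 0 of the 6.

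Genes of the Ly49 receptors of natural killer cells (Klra), whose copies share reads, were at the edge of detection. Of 9 tested, 4 had 0 counts in the E7 ears and 4 rose in E7 skin (median 2.14, or 0.99 at the bounds), and 6 rose in C57BL/6 skin. Genes with 0 counts in the ears could not fall. Klra8 had 0 counts in the ears and stood at 1.11, 0.878 and 1.61 CPM in the grafts.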
